A study of Mus musculus with 49 samples.

Results

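Frontal cortex of mice carrying a conditional human amylin transgene was compared with frontal cortex of WT mice fed a high fat diet for 2 months. The transgenic side holds all 20 libraries of that line, 10 from mice given vehicle and 10 from mice given tamoxifen, and the control side holds 9 WT libraries, so that 29 of the 49 libraries in the series entered the comparison. Libraries were taken by their titles, and the 10 WT libraries from 4 months of diet were kept out of the main fit because they stand for another diet time. The series' design text gives the transgenic groups as 4 months of high fat diet followed by vehicle or Tamoxifen. The labels' protocols state that brains were collected after 2 months, and do not say whether those months fall within the 4 months or follow them. Every group in the comparison was on the high fat diet. The sources used here give no age, sex, strain, Cre promoter or collection batch, and no tamoxifen-treated mice without the transgene were analysed here. The transgenic and WT mice of this comparison therefore differ in line, diet time and injection together, and these cannot be told apart within it. Nothing in the labels ties a library to a separate litter or cage, so the p-values reflect only how much the libraries vary, which may be technical.

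Amylin, the product of Iapp, is a peptide that beta cells of the pancreas secrete along with insulin. In the brain it acts on receptors made of the calcitonin receptor and a RAMP subunit. The human form can aggregate, which is why mice that express it are used as a model. In an inducible design, tamoxifen activates a Cre recombinase that switches the transgene on, and mice given vehicle carry the same transgene without that induction. Cortical tissue on a prolonged high fat diet is commonly examined for changes in insulin signalling, in glia and in the stress pathways that govern protein synthesis and folding.

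Mouse Iapp was at or near 0 throughout. The 10 tamoxifen libraries held 0 Iapp reads among 474.7 M reads and the 9 WT libraries 0 among 423.9 M, which allow up to 0.00632 and 0.00708 reads per M by the limit of 3 reads. The 10 vehicle libraries held 1 read among 419.9 M. The human transgene was not analysed here, so the induction itself was not checked.

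The 29 libraries held 29.2 to 68.8 M reads (median 44.1 M), and 17089 to 18110 genes had at least 1 read in a library. Markers of cortical excitatory neurons were present in every library, and Slc17a7, the vesicular glutamate transporter of those neurons, lay between 15.23 and 16.58 on the deposited log2 scale in the transgenic libraries. The mean level of the cortical excitatory layer list spanned 10.48 to 11.28 in the transgenic libraries against 11.17 to 11.34 in WT. Neighbouring tissue varied between libraries of both sides. The mean level of the olfactory bulb and mucosa list ran from 5.11 to 10.04 in the transgenic and from 5.21 to 8.65 in the WT libraries, and that of the striatal list from 7.65 to 11.54 and from 7.78 to 11.51. Of the 16 olfactory, 14 striatal and 12 choroid plexus genes tested, 0 passed the test between the groups with limma. A cut at a mean standardised level of 0.75 marked 7 libraries as high in at least 1 of these 3 lists (6 transgenic and 1 WT). The levels run on without a break at that cut: on the striatal list vehicle library 39, which was kept, was at 0.72 and vehicle library 4, which was marked, at 0.99. Results are also given without the 7 libraries. Of 4 red cell genes tested 3 did differ between the groups, as described with the glial lists.

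Of 15526 genes tested, 1203 differed between the transgenic and WT libraries at a Benjamini-Hochberg adjusted p of 0.05 with limma, which is 7.75% of those tested. Levels are the deposited log2 of normalised reads plus 1, and a difference is transgenic minus WT on that scale. Higher levels in the transgenic libraries were found for 561 genes (3.61%) and lower levels for 642 (4.13%). The differences were mostly small: 551 of the called genes differed by less than 0.2, 41 by more than 1, and the median size was 0.215 beside a median 95% interval of 0.150 to either side over all genes. When libraries were scaled by their read totals, 61.7% of the calls were higher, against 46.6% with the deposited scaling. Groups did not overlap, meaning that every transgenic library lay on the same side of all WT libraries, for 25 genes (0.161%), 9 of them higher (0.058%) and 16 lower (0.103%). In whole tissue, fewer cells of a type and less RNA per cell cannot be told apart.

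**Figure D1:**
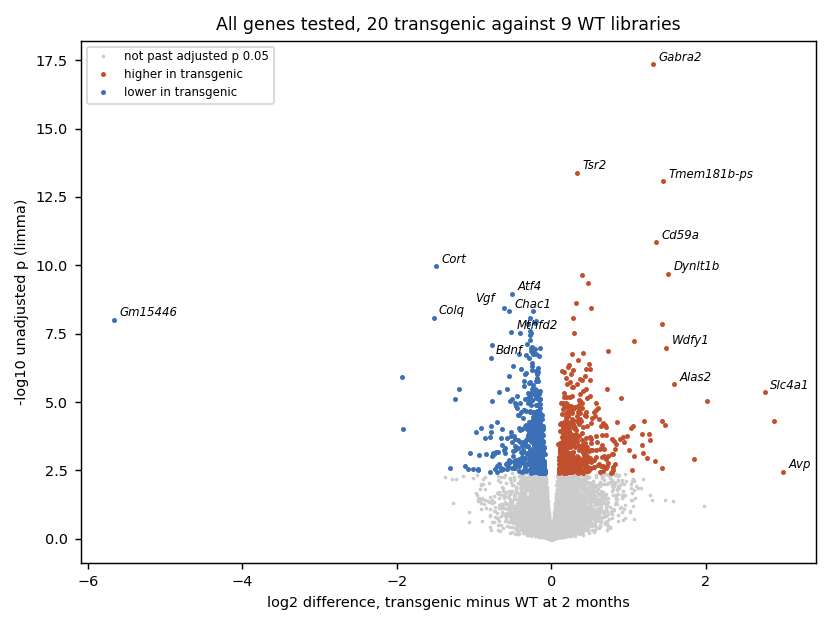
Each point is 1 of the 15526 genes tested, with the difference between the 20 transgenic and the 9 WT libraries at 2 months in log2 units on the horizontal axis and the negative log10 of the unadjusted limma p on the vertical axis. Coloured points passed an adjusted p of 0.05, and Gabra2 lies at the top at a difference of 1.32 while Gm15446 lies farthest left at -5.66.

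The gene with the smallest p was Gabra2, which encodes the alpha 2 subunit of the GABA-A receptor, the chloride channel behind fast inhibition. It lies on chromosome 5 (chr5:70957597-71095849, GRCm38, minus strand). Its level in the transgenic libraries ran from 11.32 through a median of 11.91 to 12.10, and in the WT libraries from 10.24 through 10.67 to 10.78. All 20 transgenic libraries lay above all 9 WT libraries. The difference was 1.32 (SE 0.072, adjusted p = 7.0e-14), or 2.50-fold. Of the 13 GABA-A receptor subunits tested, Gabra2 alone rose.

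A small set of other genes separated the libraries almost as completely. Cd59a, which encodes a membrane protein that blocks the terminal complement complex, ran from 8.31 through 9.06 to 9.89 in the transgenic libraries and from 7.43 through 7.70 to 7.89 in WT, a difference of 1.36 (SE 0.13, adjusted p = 5.6e-08). Tsr2, a gene of ribosome maturation on the X chromosome, differed by only 0.33 (SE 0.025, adjusted p = 3.2e-10), yet its transgenic range of 11.91 to 12.16 cleared the WT range of 11.64 to 11.79. Slc15a2, a peptide transporter, ran from 10.06 to 10.82 against 9.67 to 10.01 and was 0.44 higher (adjusted p = 0.00016). Dynlt1b and the pseudogene Tmem181b-ps, neighbours on chromosome 17, were 1.51 (SE 0.16) and 1.44 (SE 0.11) higher, and both have near-identical copies nearby, so that the split of reads among the copies is uncertain. On the lower side, Adss, which encodes an enzyme of AMP synthesis, ran from 11.07 to 11.98 against 12.07 to 12.29 (difference -0.45, adjusted p = 0.00079). Ndufaf1, an assembly factor of respiratory complex I, ran from 9.61 to 9.93 against 9.99 to 10.20, and was 0.27 lower (adjusted p = 2.0e-05). Lonp1, the mitochondrial matrix protease, ran from 11.73 to 11.93 against 11.96 to 12.04 and was 0.16 lower (adjusted p = 6.6e-05).

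The transgenic libraries were not uniform among themselves for 2 of these genes. Wdfy1, an endosomal adaptor on chromosome 1, lay between 9.26 and 9.59 in WT. Among the transgenic libraries 2 lay within that range at 9.26 and 9.33 (vehicle library 16 and tamoxifen library 21), 12 lay between 10.69 and 10.95, and 6 lay between 11.42 and 11.81. The mean difference of 1.49 (SE 0.21, adjusted p = 4.5e-05) therefore averages 3 separate ranges, each of the upper pair holding libraries of both injection groups. Gm15446, a predicted gene on chromosome 5 (chr5:109923400-109943936), was at 7.09 to 7.70 in WT and at 0 to 2.06 in 17 transgenic libraries, while vehicle library 16 stood at 6.56 and tamoxifen libraries 21 and 27 at 6.72 and 6.74. Vehicle library 16 and tamoxifen library 21 also held the lowest Gabra2 levels of their groups, 11.32 and 11.50, which were above every WT library. Without these 2 libraries, which were chosen after their values were seen, 1380 genes were called. Nnt, the mitochondrial transhydrogenase that makes NADPH, spread from 9.55 to 10.61 in the transgenic libraries against 9.60 to 9.75 in WT: 17 transgenic libraries lay above all WT libraries and 1 below, and the mean was 0.46 higher (SE 0.10, adjusted p = 0.0039). Gabra2 and Nnt are known to differ in expression between inbred mouse strains, and transgene, diet time and strain background cannot be told apart here.

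**Figure D2:**
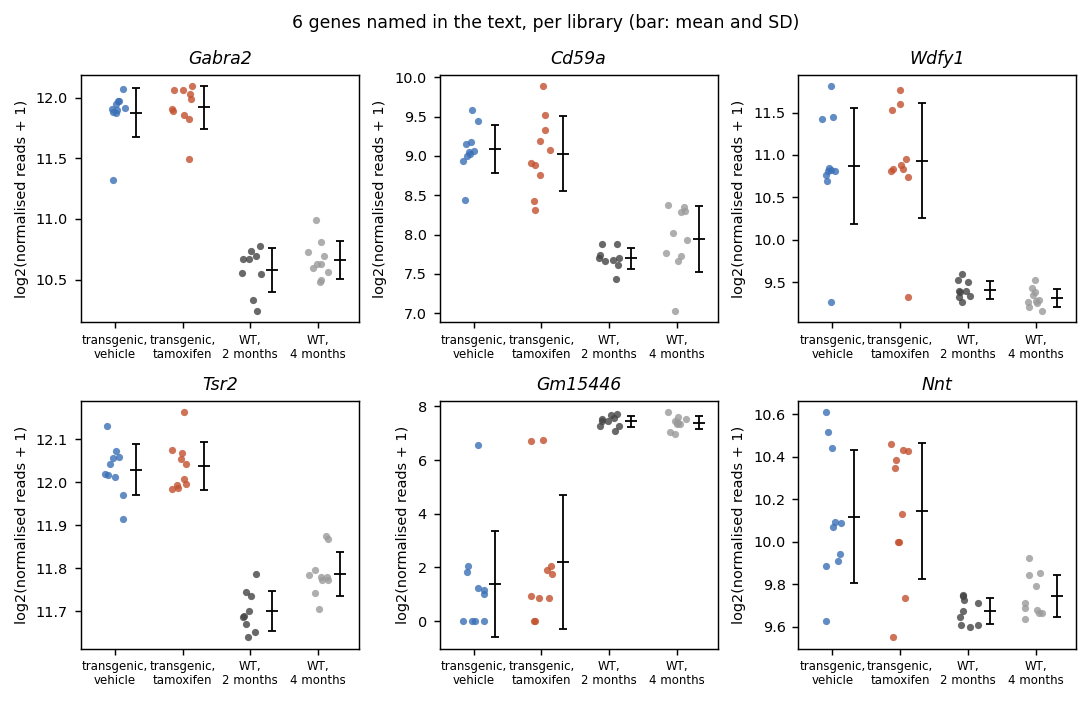
Levels of 6 genes in each library as log2 of normalised reads plus 1, for the 10 vehicle and 10 tamoxifen transgenic libraries, the 9 WT libraries at 2 months and the 10 WT libraries at 4 months, with bars at the mean and SD. Gabra2, Cd59a and Tsr2 separate every transgenic library from WT at 2 months, and Wdfy1 falls in 3 ranges. Gm15446 is at 0 to 2.06 in 17 transgenic libraries and at 6.56 to 6.74 in 3, which is still below every WT library.

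Each injection group was also set against WT in a model of all 3 groups. The vehicle libraries differed from WT at 407 genes (2.62%), 183 higher (1.18%) and 224 lower (1.44%), and the tamoxifen libraries at 1029 genes (6.63%), 457 higher (2.94%) and 572 lower (3.68%). Both contrasts use the same 9 WT libraries. The difference between tamoxifen and vehicle libraries, tested directly, passed for 0 genes with limma-trend and for 0 with limma-voom, and 613 genes had an unadjusted p under 0.05. Over the 1203 genes of the pooled comparison, the median absolute difference between tamoxifen and vehicle was 0.046. For Gabra2 the vehicle libraries were 1.30 and the tamoxifen libraries 1.34 above WT, and their own difference was 0.05 (SE 0.081). For Cort the 2 values were -1.24 and -1.75, and their difference was -0.51 without passing the test.

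A share of the genes that cells switch on when amino acids run short or proteins fail to fold was lower in the transgenic cortex, 7 of 18 tested. This programme, the integrated stress response, works through the transcription factor ATF4, whose targets supply amino acids, charged tRNAs and one-carbon units. Over all genes tested 4.13% were called lower. None of the 18 rose, and the list had a median difference of -0.12 beside 0.01 over all genes tested. The largest differences were in Chac1, which degrades glutathione, Mthfd2, an enzyme of mitochondrial folate metabolism, and Atf4 itself.

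The response element that ATF4 forms with C/EBP proteins was searched in the RefSeq promoters of the genes that fell, and the windows that hold it are shown because these genes fell together. Each window is 30 bases of the GRCm38.p6 sequence, 5′ to 3′ on the strand of the gene, with the 8 bases that match TGATGNAA on either strand in capitals.
Asns, chr6:7693214-7693243, minus strand: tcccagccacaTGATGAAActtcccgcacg
Chac1, chr2:119351038-119351067, plus strand: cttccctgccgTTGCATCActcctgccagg
Gars, chr6:55037960-55037989, plus strand: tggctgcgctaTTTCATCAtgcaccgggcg
Iars, chr13:49682126-49682155, plus strand: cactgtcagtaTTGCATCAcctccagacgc
Tars, chr15:11399655-11399684, minus strand: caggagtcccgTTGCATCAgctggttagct
Yars, chr4:129189895-129189924, plus strand: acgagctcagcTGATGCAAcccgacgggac
The motif was chosen after it was known that these genes fell. Of the 7 lower genes of the programme 6 had a promoter in the table and 2 held a match (Asns and Chac1), and of 11 lower aminoacyl-tRNA synthetase genes 7 had a promoter and 4 held a match. Among promoters of 300 bases, running from 250 before to 50 after the gene start, 2.26% of those of genes tested held the motif, 4.08% of those of genes that fell and 1.09% of those of genes that rose. The cAMP response element TGACGTCA, searched in the same way, was in 2.83%, 4.84% and 2.36% of these sets. A match describes the sequence only, and no match was found in the promoters of Atf4, Mthfd2, Sesn2, Slc3a2, Farsb, Mars and Sars.

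Chac1 ran from 7.75 through 7.96 to 8.25 in the transgenic libraries and from 8.32 through 8.50 to 8.80 in WT. No transgenic library reached the WT range, and the difference was -0.55 (SE 0.069, adjusted p = 5.3e-06). Mthfd2 ran from 7.77 through 8.03 to 8.41 against 8.45 through 8.54 to 8.74, again without overlap, and fell by 0.52 (SE 0.071, adjusted p = 1.8e-05). Atf4 ran from 11.93 through 12.10 to 12.61 against 12.50 through 12.65 to 12.80. Here 19 of 20 transgenic libraries lay below all WT libraries, and the difference was -0.51 (SE 0.059, adjusted p = 1.9e-06). Asns, asparagine synthetase, was 0.34 lower (adjusted p = 0.00092), also with 19 of 20 transgenic libraries below all WT libraries. Smaller falls were found in Sesn2, a sensor of leucine (-0.18), and in Slc7a5 and Slc3a2 (-0.14 and -0.13), the 2 chains of a large neutral amino acid transporter. The calls of Sesn2 and Slc7a5 were lost in 7 and 11 of the 29 fits without 1 library. Ddit3, which encodes the pro-apoptotic factor CHOP, was at a difference of 0.05 and Atf5 at -0.28, neither past the test.

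The aminoacyl-tRNA synthetases, enzymes that load each amino acid onto its tRNA, were taken as a list after their values had been seen. Of the 20 cytosolic genes tested, 11 fell and 1 rose, with a median of -0.13. Of all genes tested 4.13% fell and 3.61% rose. Cars, which charges cysteine tRNA, ran from 10.39 through 10.65 to 10.78 against 10.81 through 10.97 to 11.13 and was 0.31 lower (SE 0.040, adjusted p = 1.0e-05). Sars, for serine, ran from 13.09 to 13.24 against 13.24 to 13.33 and was 0.15 lower. Neither overlapped. The others that fell were Iars, Nars, Yars, Gars, Tars, Mars, Farsb, Wars and Rars, by 0.26 to 0.11, and Hars rose by 0.14. The call of Tars was lost in 6 of the 29 fits without 1 library. The mean level of the 20 genes was 11.58 to 11.76 in the transgenic and 11.75 to 11.83 in the WT libraries. With the levels of 6 lists (4 of neighbouring tissue or myelin, immediate early genes and red cell genes) as covariates, 3 integrated stress genes and 1 synthetase still passed in the lower direction. That fit called 121 genes in all, 75 of them lower.

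Some chaperone genes were lower, both of the endoplasmic reticulum and of the cytosol and mitochondria. In the endoplasmic reticulum list 9 of 19 genes fell and 0 rose (median -0.20), while 4.13% of all genes tested fell. Calr, which encodes the lectin chaperone calreticulin, ran from 13.68 through 13.91 to 14.21 against 13.98 through 14.14 to 14.43 and was 0.26 lower (adjusted p = 0.0037). Hsp90b1, the chaperone GRP94, was 0.24 lower (SE 0.041, adjusted p = 0.00041), with 17 of 20 transgenic libraries below all WT libraries. Sdf2l1 (-0.47), Creld2 (-0.34), Pdia6 (-0.26), Dnajb11 (-0.25), Xbp1 (-0.20), Pdia3 (-0.19) and Hyou1 (-0.18) also fell. The call of Xbp1 was lost in 20 of the 29 fits without 1 library, those of Sdf2l1, Hyou1 and Pdia6 in 3, 2 and 1 (highest adjusted p 0.139, 0.0735, 0.0668 and 0.0512, each without WT library 35). Hspa5, which encodes the main chaperone of that compartment, was at -0.25 without passing (adjusted p = 0.077).

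All 19 cytosolic and mitochondrial heat shock genes tested had a negative difference with the deposited scaling, and 8 of them fell (median -0.17). The share of all genes tested that fell was 4.13%. Hspa8, the constitutive HSP70, ran from 15.97 through 16.07 to 16.29 against 16.18 through 16.27 to 16.51 and was 0.21 lower (SE 0.038, adjusted p = 0.00054). Hsph1, its nucleotide exchange factor, ran from 13.42 through 13.72 to 14.12 against 13.89 through 14.002 to 14.58 and was 0.36 lower (adjusted p = 0.0017). In both genes 18 of 20 transgenic libraries lay below all WT libraries. Hspa4 was 0.25 lower (adjusted p = 4.5e-05), and Chordc1, Dnaja1, Ahsa1, Stip1 and Hspd1 completed the calls. The call of Stip1 was lost in 3 of the 29 fits without 1 library. The inducible Hspa1a was at -0.30 and did not pass. WT library 35 held the highest mean level of both chaperone lists, 12.87 and 12.16, and tamoxifen library 21 the highest transgenic ones, 12.44 and 11.83. Without WT library 35, 7 heat shock and 5 endoplasmic reticulum genes were called lower. Without vehicle library 16 and tamoxifen library 21 the counts were 10 and 12, and with the 6 list levels as covariates 1 and 2.

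**Figure D3:**
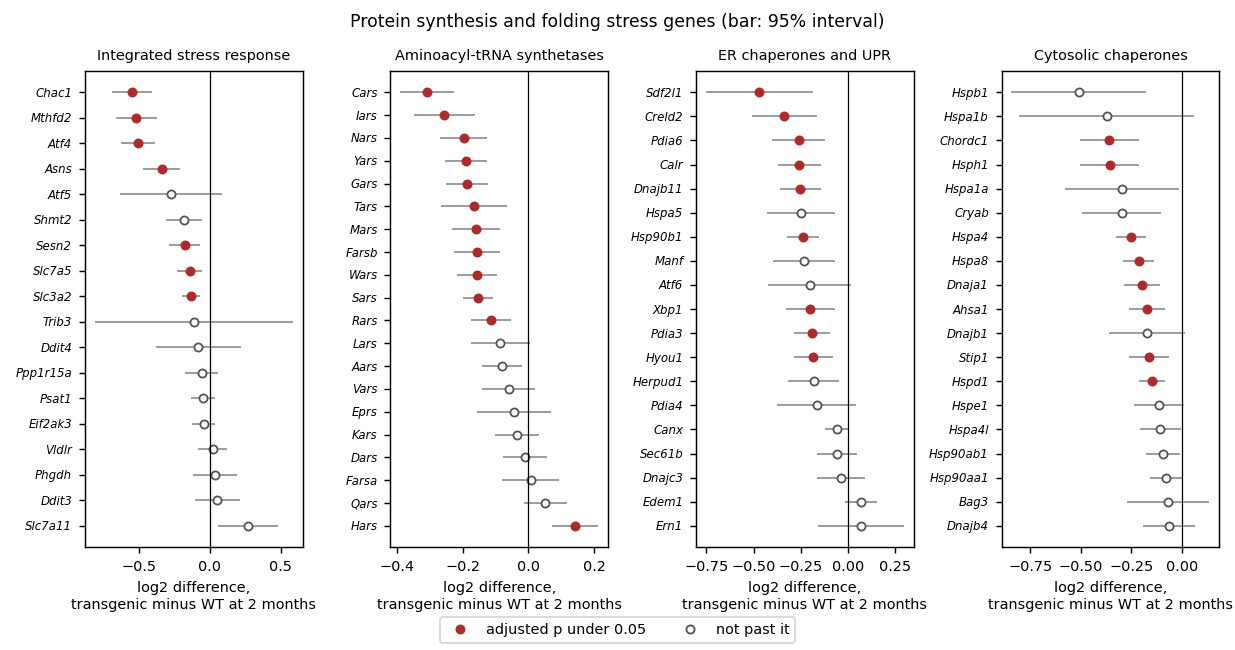
Difference between transgenic and WT libraries at 2 months for every tested gene of 4 lists, in log2 units with 95% intervals, ordered by size within each panel. Filled points passed an adjusted p of 0.05: 7 of 18 integrated stress genes, 12 of 20 aminoacyl-tRNA synthetases, 9 of 19 endoplasmic reticulum genes and 8 of 19 heat shock genes, all lower except Hars. Of all genes tested 7.75% passed.

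Some genes that neurons transcribe on activity were lower as well. Of 17 immediate early genes tested, 5 fell and 0 rose (median -0.65), and of 20 later activity-regulated effectors 8 fell and 0 rose (median -0.42). Over all genes tested 4.13% fell. Egr1, a zinc finger factor induced within minutes of firing, ran from 12.03 through 13.30 to 13.96 against 13.40 through 13.92 to 14.62. It was 0.78 lower (SE 0.18, adjusted p = 0.0055), and 14 of 20 transgenic libraries lay below all WT libraries. Egr4 (-0.72), Nr4a3 (-0.80), Fosb (-0.65) and Egr3 (-0.64) also fell, and the calls of Nr4a3 and Fosb were lost in 20 and 17 of the 29 fits without 1 library (highest adjusted p 0.103 and 0.0999). Fos was at -0.67 (adjusted p = 0.24) and Arc at -0.91 (adjusted p = 0.088), neither past the test. The mean level of the 17 genes spread from 9.35 to 11.08 in the transgenic libraries and from 10.002 to 11.36 in WT, where library 36 was the lowest. Without that library 9 immediate early genes and 10 effectors were called lower, and the other fits without 1 library gave at least 3 and 6. With the mean standardised level of the immediate early list as a covariate, 0 immediate early genes and 4 effectors were called lower. That covariate is made of the same 17 genes, so it takes out their own difference by construction and the 0 cannot be read as a result.

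Among the effectors, Bdnf, a neurotrophin released by active neurons, ran from 9.59 through 10.37 to 10.92 against 10.74 through 11.17 to 11.39. It was 0.79 lower (SE 0.12, adjusted p = 7.7e-05), with 17 of 20 transgenic libraries below all WT libraries. Vgf, the precursor of several secreted neuropeptides, ran from 13.07 through 13.52 to 13.97 against 13.99 through 14.09 to 14.49. Its groups did not overlap, and it was 0.62 lower (SE 0.076, adjusted p = 4.8e-06). Dusp4 (-0.57), Homer1 (-0.53), Dusp14 (-0.47), Dusp6 (-0.42), Gadd45b (-0.41) and Nptx2 (-0.37) were the other effectors that fell, and the calls of Dusp6 and Dusp4 were lost in 7 and 4 of the 29 fits without 1 library. Dusp4, Dusp6 and Dusp14 encode phosphatases, several of which act on MAP kinases, and Homer1 a scaffold of the postsynapse.

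Neuropeptide genes fell at 4 of 18 tested, with 0 rising, while 4.13% of all genes tested fell. Cort, which encodes cortistatin, a peptide of a subset of cortical interneurons, ran from 5.97 through 6.75 to 8.09 in the transgenic and from 7.96 through 8.39 to 8.63 in the WT libraries. All but 1 of the 20 transgenic libraries lay below all WT libraries, and the difference was -1.50 (SE 0.16, adjusted p = 3.3e-07), or 2.82-fold lower. Besides Vgf, Adcyap1, the precursor of PACAP, was 0.47 lower (adjusted p = 0.0079), and Crh, corticotropin releasing hormone, was 0.57 lower (adjusted p = 0.041), a call lost in 18 of the 29 fits without 1 library (highest adjusted p 0.0823). The interneuron list as a whole held 1 call among 18 genes, a rise of Htr3a by 0.45. Colq, which encodes the collagen tail that anchors acetylcholinesterase, ran from 3.59 through 4.97 to 5.85 against 5.97 through 6.51 to 7.19, without overlap, and was 1.53 lower (SE 0.20, adjusted p = 7.7e-06).

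A share of the microglial genes was higher in the transgenic libraries. Of 20 homeostatic microglia markers tested, 6 rose and 0 fell (median 0.17), while 3.61% of all genes tested rose. P2ry12, a purinergic receptor of surveying microglia, ran from 10.15 through 10.64 to 11.05 against 10.19 through 10.42 to 10.46. It was 0.27 higher (SE 0.067, adjusted p = 0.0096), with 17 transgenic libraries above all WT libraries and 1 below. Gpr34 (0.36), Itgam (0.23), Ctss (0.20) and Cx3cr1 (0.20) were among them, with the calls of Ctss and Cx3cr1 lost in 8 and 2 of the 29 fits without 1 library, whereas Fcrls was at -0.20 without passing (adjusted p = 0.097). Among 19 genes linked to disease-associated microglia, Axl alone rose, by 0.17, a call lost in 3 of the 29 fits without 1 library. C4b, complement component 4, ran from 9.37 through 10.24 to 11.23 against 9.19 through 9.83 to 10.19 and was 0.62 higher (adjusted p = 0.032), a call lost in 4 of the 29 fits without 1 library (highest adjusted p 0.0766 without WT library 34). No call was made with limma among 15 astrocyte, 13 reactive astrocyte or 25 interferon genes, of which 1, 3 and 2 had an unadjusted p under 0.05.

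Of 8 red cell genes listed 4 were tested, and 3 of these were higher in the transgenic libraries, beside 3.61% of all genes tested. The smallest difference among the 4 was 0.02. Alas2, the erythroid heme synthesis enzyme, ran from 8.15 through 9.14 to 10.77 in the transgenic and from 6.93 through 7.65 to 8.45 in the WT libraries and was 1.58 higher (SE 0.27, adjusted p = 0.00039). Slc4a1, the anion exchanger of the red cell membrane, ran from 1.88 through 4.82 to 6.59 against 0 through 2.07 to 2.54 and was 2.76 higher (SE 0.49). The mean level of the red cell list was 6.34 to 9.03 in the transgenic and 5.61 to 6.88 in the WT libraries, and Hba-a1, Hba-a2, Hbb-bs and Hbb-bt are listed at 0 in every library. With the red cell level as a covariate, 2 microglial, 6 integrated stress, 8 synthetase, 7 endoplasmic reticulum, 8 heat shock, 4 immediate early and 8 effector genes were called in the directions given above. Its part in the other differences was not tested beyond these fits. Without the 7 libraries of high neighbouring tissue the same lists held 10 microglial, 9 integrated stress, 12 synthetase, 8 endoplasmic reticulum, 9 heat shock, 7 immediate early and 9 effector genes in those directions. Scaled by read totals they held 6, 5, 9, 8, 7, 3 and 8. The totals over all genes differed too, so these list counts cannot be compared directly. The main fit called 1203 genes (561 higher, 642 lower) and the fit with the red cell covariate 2286 (1011 higher, 1275 lower). Without the 7 libraries 2297 were called (1088 higher, 1209 lower), and with scaling by read totals 1220 (753 higher, 467 lower).

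**Figure D4:**
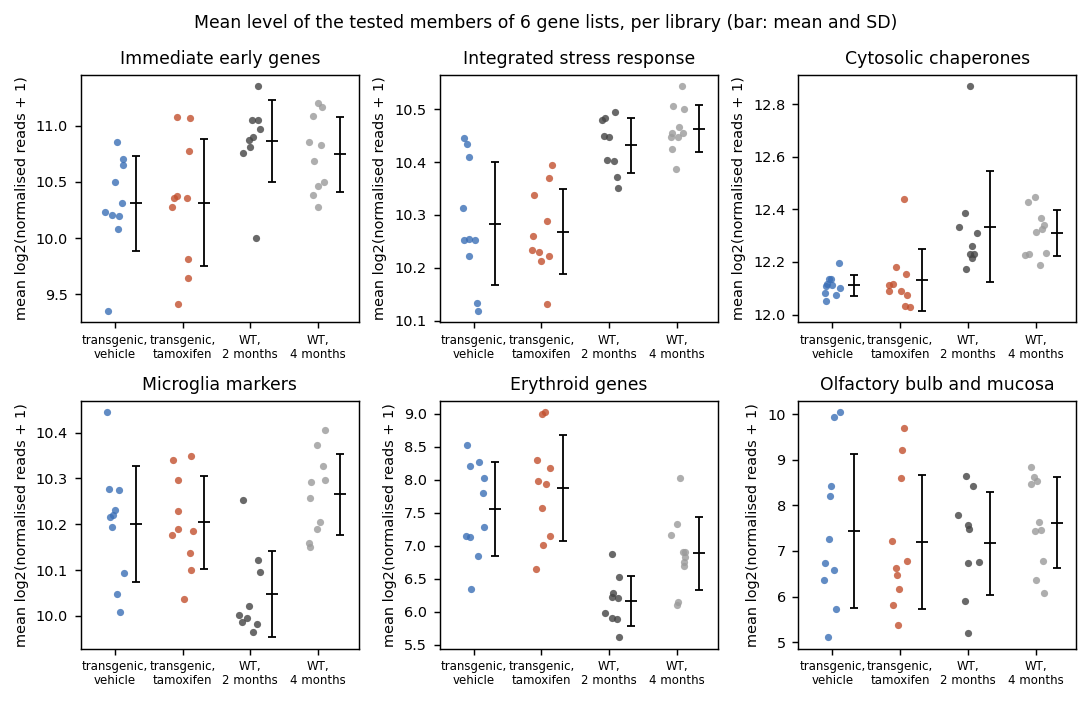
Mean level of the tested members of 6 gene lists in each library, in log2 of normalised reads plus 1, for both transgenic groups and both WT groups, with bars at the mean and SD. Integrated stress and heat shock levels sit mostly below WT at 2 months and red cell levels above it, while the olfactory level spans 5.11 to 10.04 across the transgenic and 5.21 to 8.65 across the WT libraries.

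Insulin and growth factor signalling showed 5 rises and 1 fall among 25 genes tested (median 0.10). Of all genes tested 3.61% rose and 4.13% fell. Ide, which encodes the protease that degrades insulin, amylin and amyloid beta, ran from 10.90 through 11.55 to 12.10 against 10.73 through 10.96 to 11.69. It was 0.51 higher (SE 0.11, adjusted p = 0.0035), and only 6 transgenic libraries lay above all WT libraries. Akt1, the kinase downstream of the insulin receptor, was 0.12 higher (SE 0.023, adjusted p = 0.0011) with 19 of 20 libraries above all WT libraries. Its paralog Akt2 moved the other way, from 12.32 through 12.42 to 12.47 in WT down to 11.76 through 12.15 to 12.38, a difference of -0.28 (SE 0.052, adjusted p = 0.00088). Slc2a4, the insulin-responsive glucose transporter, was 0.63 higher (adjusted p = 0.047), a call lost in 19 of the 29 fits without 1 library. Igfbp5 and Igfbp3, carriers of insulin-like growth factors, were 0.31 and 0.19 higher, the call of Igfbp3 being lost in 5 such fits, and Insr and Irs1 were at 0.07 and 0.05 without passing. With the 4 tissue levels as covariates 2 of the 25 genes were called higher.

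In the pooled comparison no gene of the amylin and calcitonin family was called with limma among 6 tested, and 1 had an unadjusted p under 0.05. Ramp1, Ramp2 and Ramp3, the receptor subunits, were at 0.07, 0.14 and -0.27, Calca at 0.39 and Calcrl at 0.27 (adjusted p = 0.082). In the model of all 3 groups Calcrl was 0.36 higher in the tamoxifen libraries than in WT and passed the test (adjusted p = 0.039).

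Metabolic and hormone lists moved at single genes, while 3.61% of all genes tested rose and 4.13% fell. Pfkfb3, which sets glycolytic flux, ran from 10.26 through 10.70 to 11.05 against 10.85 through 11.18 to 11.56 and was 0.55 lower (SE 0.090, adjusted p = 0.00023), the only call among 22 glycolysis genes. Of 13 thyroid hormone genes tested 3 fell: Dio2, the enzyme that makes active hormone (-0.51), Hr, a hormone-responsive corepressor (-0.39), and Slco1c1, a hormone transporter (-0.22). Of 14 genes of mitochondrial NADPH and peroxide handling, Nnt, Gpx4 (0.13) and Gsr (0.10) rose and Sod2 fell by 0.09. The calls of Sod2 and Gsr were lost in 17 and 5 of the 29 fits without 1 library (highest adjusted p 0.112 without WT library 35 and 0.0801 without WT library 32), and that of Slco1c1 in 3 (0.0655 without WT library 34). Without WT library 37, 5 genes of the NADPH list rose. Nqo1 and Gsta4, targets of NRF2, were 0.45 and 0.34 higher, 2 of 17 genes. Of 72 ribosomal protein genes 4 rose, by 0.14 to 0.20, and 63 had a positive difference. That is 5.56% of the list beside 3.61% of all genes tested, and the count ran from 0 (without WT library 33, 35, 36 or 39) to 16 (without WT library 37) in the fits without 1 library. In the list of 22 proliferation genes, which was made after values were seen, Uhrf1 (-1.01), Top2a (-0.95), Mxd3 (-0.86) and Mki67 (-0.73) fell and Mcm6 rose by 0.36. The calls of Top2a, Mki67 and Uhrf1 were lost in 15, 14 and 16 of the 29 fits without 1 library. Ugt8a, an enzyme of myelin lipid synthesis, was 0.46 lower, the only call among 18 myelin genes (median -0.27).

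The WT libraries at 4 months were placed beside these genes in a model of 39 libraries. There the transgenic libraries differed from WT at 4 months at 2070 genes (13.3%; 6.2% higher and 7.13% lower). The WT groups differed from each other at 599 genes (3.86%), 2.22% being higher and 1.64% lower at 4 months. These comparisons share libraries with the main one, so each gene's values are given side by side without a test of likeness. For Gabra2 the transgenic libraries were 1.32 above WT at 2 months and 1.24 above WT at 4 months, and the WT groups differed by 0.08. Wdfy1 (1.49 and 1.58), Cd59a (1.36 and 1.11), Tsr2 (0.33 and 0.25), Gm15446 (-5.66 and -5.60), Nnt (0.46 and 0.39) and Akt2 (-0.28 and -0.26) were likewise on the same side of both WT groups, each past the test against either.

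Several stress genes were also lower than in WT at 4 months. Chac1 was 0.52 below WT at 4 months, Mthfd2 0.55, Atf4 0.36, Hspa8 0.24 and Hsp90b1 0.30, all past the test, and 11 of 19 heat shock genes were called lower there. Of 19 endoplasmic reticulum genes 5 were called lower and 1 higher there (median -0.08), beside 7.13% lower among all genes tested. Cort was 1.03 below WT at 4 months (adjusted p = 2.4e-06) and Bdnf 0.43 (adjusted p = 0.0078). Of 17 immediate early genes 1 was called lower against WT at 4 months, and of 20 effectors 3 (medians -0.45 and -0.23), with 0 higher. The share of all genes tested called lower there was 7.13%. Vgf was 0.62 below WT at 2 months and 0.09 below WT at 4 months, and WT at 4 months was itself 0.52 below WT at 2 months (adjusted p = 0.0017). For Colq the 3 values were -1.53, -0.53 and -0.997, and the difference from WT at 4 months did not pass (adjusted p = 0.087). P2ry12 was 0.27 above WT at 2 months and 0.01 above WT at 4 months, C4b 0.62 above and 0.03 below, and Nqo1 0.45 and 0.01 above. Of the 20 homeostatic microglia markers, 0 were called higher and 2 lower against WT at 4 months, while 8 were higher in WT at 4 than at 2 months. Over all genes tested 2.22% were higher in WT at 4 than at 2 months. The myelin list had a negative median against both WT groups, with 1 of 18 genes lower against WT at 2 months and 16 of 18 lower against WT at 4 months (medians -0.27 and -0.51). Of 4 red cell genes tested 1 was called higher and 0 lower against WT at 4 months, beside 6.2% higher among all genes tested.

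**Figure D5:**
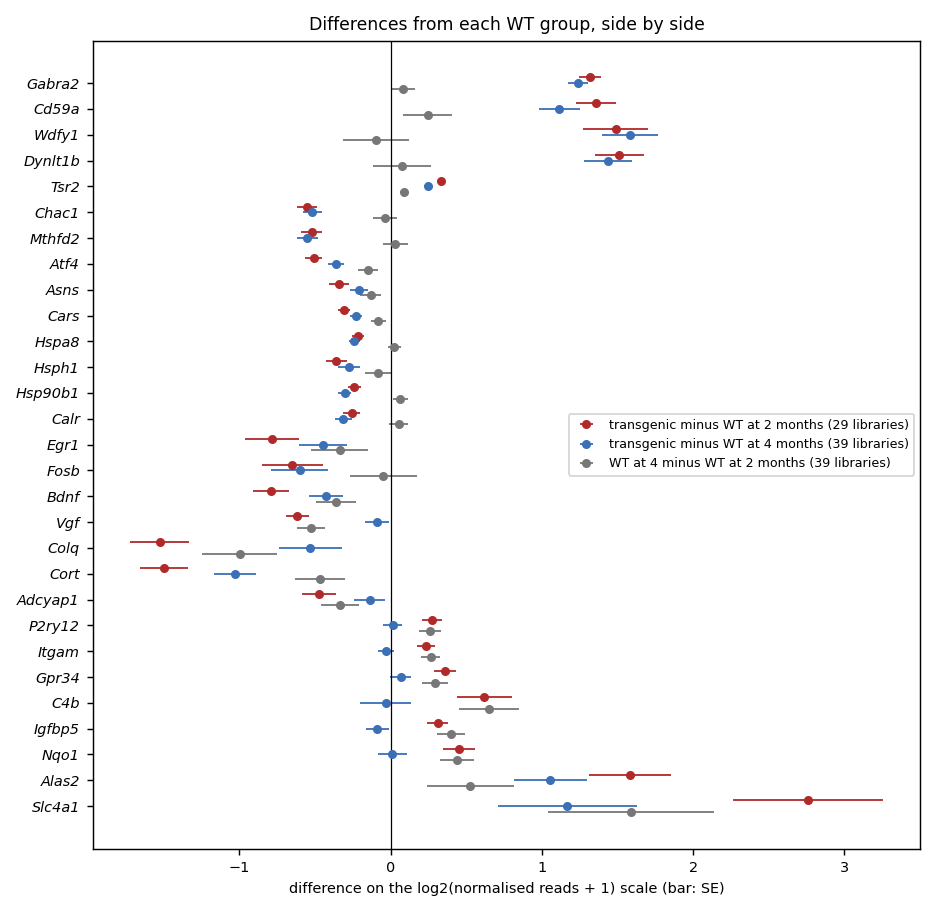
For 29 genes, chosen after their values were seen, the difference of the transgenic libraries from WT at 2 months (29 libraries) and from WT at 4 months, and of WT at 4 from WT at 2 months (both 39 libraries), on the log2 scale with standard errors. Gabra2, Wdfy1, Chac1 and Mthfd2 lie on the same side of both WT groups with WT differing by 0.10 or less, while Vgf, P2ry12, C4b and Nqo1 lie within 0.10 of WT at 4 months.

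Other large differences among genes of at least 1 read per M, predicted genes aside, were found in a mixed set. Avp, vasopressin, ran from 1.23 through 3.24 to 10.94 in the transgenic libraries against 0 through 1.77 to 3.05 (difference 2.996, SE 0.95, adjusted p = 0.048), and the call was lost in 17 of the 29 fits without 1 library (highest adjusted p 0.0954). Isg20 (1.47), Atp6v1c2 (1.43), Tnfrsf8 (1.20), Samd3 (1.06), Batf3 (1.03) and Upk1b (0.90) also rose. Tnfrsf8, the receptor CD30, ran from 5.08 through 6.78 to 7.70 against 4.92 through 5.42 to 6.48 and was also 1.10 above WT at 4 months. H60b (-1.32), Tnfrsf25 (-1.09), Tspan11 (-0.94), Fam150b (-0.91) and Synj2 (-0.77) fell. The calls of Tnfrsf25, Atp6v1c2, H60b and Samd3 were lost in 13, 8, 7 and 3 of the 29 fits without 1 library (highest adjusted p 0.106, 0.0853, 0.0782 and 0.0575, each without WT library 35). Synj2, a phosphoinositide phosphatase, ran from 10.82 through 11.98 to 12.44 against 12.02 through 12.66 to 12.94, with 11 of 20 transgenic libraries below all WT libraries. Across the autosomes and the X chromosome, the share of tested genes called ran from 6.45% on chromosome 16 to 9.03% on chromosome 11.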

How the data were processed

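The authors deposited 1 table with 24495 genes and 50 value columns on a log2 scale, of which 1 column matched no sample and was not used. Aligner, counter, genome build and normalization were not given in the sources used here. RNA was from frontal cortex, with Illumina TruSeq Stranded mRNA libraries, per the labels' protocols. The deposited log2 values were found to be log2(reads divided by a size factor, plus 1): undoing this gave whole reads for 99.92 to 100% of values up to 200 reads within 0.1, and 7 genes that did not were left out. Symbols listed as calendar dates were restored for 27 genes by gene ID. Positions are GENCODE M21 on GRCm38, matched by symbol for 23464 genes.

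Groups were read from titles. Genes with 10 reads at the median library in at least 9 of the 29 libraries, and 15 in total, were tested on the log2 scale with limma 3.58.1 (trend, robust, R 4.3.3), two-sided, Benjamini-Hochberg threshold 0.05. Injection groups came from a 3-group fit and WT at 4 months from a 39-library fit. Python 3.11.15, pandas 2.3.3 and matplotlib 3.10.9 were used. No pair of libraries agreed within sampling noise. Fits were tested on simulated data. Alternatives were limma-voom on the recovered reads, other filters, scalings, designs and covariates, and leaving out libraries.

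The members and the 42 gene lists were chosen with earlier results of these data known. Named genes are Iapp, the 12 largest rises and falls of at least 1 read per M, up to 4 called members of each list with the smallest p, and the 8 genes with the widest gap between groups; some genes this rule picks are not reported here. Other genes named, 2 lists (aminoacyl-tRNA synthetases and proliferation), the ATF4 motif and the genes plotted were chosen after values were seen. So were the fits with a red cell covariate or without libraries picked by their levels. No test of gene sets was run. Read limits cover counting error only.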

Additional observations from a re-analysis of the deposited data

Results flagged for a closer look

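In each group of 9 or 10 libraries, the highest and the lowest value of every named gene and list level were compared with their nearest neighbour, and a value was singled out when its gap exceeded Dixon's 95% limit for the group's range. Of 435 groups of values 52 held such a value, where 22 would be expected by chance at 1 in 20. The values fall mainly on a few libraries, and no explanation for them was tested.

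Vehicle library 16 was lowest of its group for Gabra2 (11.32), Ide (10.90) and Wdfy1 (9.261) and highest for Gm15446 (6.565). Tamoxifen library 21 was lowest for Gabra2 (11.50) and Wdfy1 (9.33) and highest for Dio2 (12.95), Hspa8 (16.29), Hsph1 (14.12) and the heat shock (12.44) and endoplasmic reticulum (11.83) list levels. Both libraries thus sit nearer to WT than the rest of their groups for Gabra2 and Wdfy1.

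In tamoxifen library 9 the set-apart values were Akt2 (11.76), Egr3 (11.35), Srebf2 (13), Synj2 (10.94), Tnfrsf8 (5.077) and the excitatory layer (10.64) and synaptic (13.36) lists on the low side, and Rpl11 (13.42) and Tsr2 (12.16) on the high side. Vehicle library 3 was lowest for H60b (1.23), the fibroblast list (7.555) and the excitatory layer list (10.48), and highest for Rpl11 (13.43) and the respiratory chain (12.56) and ribosomal (13.06) lists. These 2 libraries are among the 6 transgenic ones with a high level of neighbouring tissue, as is vehicle library 1, which was highest for Igfbp5 (13.08), the interferon list (8.402) and the complement and MHC list (9.149).

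Vehicle library 10 was lowest for Egr1 (12.03) and the immediate early list (9.351), vehicle library 5 for Notch3 (8.81) and the neuropeptide list (10.14), and tamoxifen library 33 for the amylin family list (7.848).

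Among the WT libraries, number 35 was highest for Chordc1 (12.14), Dnajb11 (11.99), Hsph1 (14.58), Pdia3 (13.63) and the heat shock (12.87) and endoplasmic reticulum (12.16) lists. WT library 36 was lowest for Gadd45b (9.338) and for the immediate early (10) and effector (10.38) lists. WT library 37 was highest for Gpx4 (13.45), Rpl11 (13.15), Rpl21 (13.78) and the respiratory chain (12.51) and ribosomal (12.89) lists and lowest for Synj2 (12.02) and the synaptic list (13.43), and it is the WT library with a high level of neighbouring tissue. WT library 32 was lowest for Atp6v1c2 (0) and Top2a (4.891).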

How the results depend on the processing

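The count of 1203 genes (561 higher, 642 lower) stayed within 1.5 times under limma-voom (1307), no filter (1059), a mean of at least 50 reads (1233), quantile normalization (1129), scaling by read totals (1220), a pseudocount of 10 (1219), the mean of both injection contrasts (1197), tamoxifen libraries alone (1231), 4 tissue covariates (1257) and no robust shrinkage (1211). It moved further with vehicle libraries alone (275; 122 higher, 153 lower), the immediate early covariate (794, 339 higher), all 49 libraries in 1 model (966 lower), the red cell covariate (2286; 1011 higher, 1275 lower), all 6 list levels as covariates (121; 46 higher, 75 lower) and without the 7 libraries of high tissue level (2297; 1088 higher, 1209 lower). The last 3 were chosen after seeing the data, the covariates come from the same libraries and move with the groups, and for all of these the cause was not tested. Leaving out 1 library gave 817 (without WT library 35) to 1503 genes (without vehicle library 3), with 380 to 690 higher and 434 to 813 lower. Similar counts did not always hold the same genes. Of the 1203 genes, 1174 were also called with limma-voom, 993 with scaling by read totals and 972 with quantile normalization. The tamoxifen libraries alone shared 891 of them and the fit with 4 tissue covariates 875. Of 101 genes followed, 0 reversed under the alternatives run, although a mean of at least 50 reads left 95 of them tested. Of the 101 genes 100 kept their call with limma-voom, 82 with tamoxifen libraries alone and 55 with vehicle libraries alone. With the immediate early covariate 65 kept it, with the red cell covariate 74 and with all 6 list levels 32. The 101 include members of the immediate early and red cell lists, whose own levels make up these covariates. Whether title numbers shared between groups mark pairs was not settled. The residual correlations of the 4 same-numbered pairs were -0.05, 0.06, 0.09 and 0.31, without those of differently numbered pairs to set beside them. A fit with the number as a replicate block called 1273 genes and changed none of the 101 calls. Depth limits low genes such as Avp and Slc4a1 most.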
